A study of Mus musculus and Homo sapiens with 14 samples.

Results

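Phlpp1, Phlpp2, Inpp4b, Inpp5d, Akt1 and Akt2 were followed through leukemia cells in which the salt-inducible kinase Sik3 or the transcription factor Mef2c was targeted by CRISPR, or in which salt-inducible kinases were inhibited by a small molecule. The 6 genes encode the AKT protein phosphatases PHLPP1 and PHLPP2, the inositol lipid phosphatases INPP4B and INPP5D (SHIP1), and the kinases AKT1 and AKT2. They were taken by symbol, in upper case for the human cells, and all 6 were present in each of the 4 deposited tables, among 20682 genes in each mouse table and 19166 in the human table. The set was chosen because Phlpp2 was lower in all 3 mouse comparisons, that is, it was selected on the normalized values of the sgSik3, sgMef2c and RN2 inhibitor comparisons. The values of the 6 genes there are therefore a description and carry no test. The human comparison and the direct comparison of the knockouts were not used for the choice, although the direct comparison rests on the same mouse libraries.

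Phosphoinositide 3-kinase (PI3K) makes the membrane lipid PIP3, which recruits AKT so that PDK1 and mTORC2 can phosphorylate it. The pathway is braked at several levels: SHIP1 removes PIP3, INPP4B removes the product of SHIP1, and the PHLPP phosphatases and PP2A take phosphate off AKT itself, PHLPP at the hydrophobic motif. In blood cells SHIP1 is abundant and restrains myeloid growth, while AKT activity keeps FOXO transcription factors out of the nucleus and so holds down FOXO target genes. None of these activities was measured here, since the data are messenger RNA levels.

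The 14 polyA-selected RNA-seq libraries form 7 groups of 2. MOLM-13 is a human acute myeloid leukemia line with an MLL-AF9 fusion. Its cells carried an empty vector in every library and received 250 nM YKL-05-099, an inhibitor of salt-inducible kinases, or 0.1% DMSO for 2 h. RN2, a mouse acute myeloid leukemia line with MLL-AF9 and a mutant Nras gene, received 350 nM YKL-05-099 or 0.1% DMSO for 2 h. The titles of the RN2 libraries also hold the word empty, but their cell line label names no vector, so whether these cells carried one is not known here. The Cas9 derivative of that line, RN2c, was sampled on day 2 after infection with a guide to Rosa26 (the control locus, 2 libraries), Sik3 (guides e1 and e3, 1 library each) or Mef2c (guides 1 and 2, 1 library each). Each condition is thus known in 1 line, the infected cells are a population and not a clone as far as the labels say, and nothing in the labels tells whether replicate libraries are separate cultures. A p-value here thus weighs a difference only against the scatter of these libraries, and that scatter may be technical.

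The tables correspond to 13961461 to 24275290 reads per library, and no pair of libraries of a group agreed within sampling noise (chi-square over degrees of freedom of 1.71 to 14.4). The sgSik3 and sgMef2c tables hold the same sgRosa26 libraries, so those comparisons share their controls and are set side by side without an overlap test. The targeted transcripts matched the labels: Sik3 was at 1939 and 1878 with sgRosa26 and at 1219 and 1169 with sgSik3, and Mef2c was at 8395 and 8369 with sgRosa26 and at 3892 and 4021 with sgMef2c. For the labelled myeloid identity, 9 of 9 myeloid genes were present in every table. Of the genes of other lineages, Cd3e, Cd3g, Hba-a1 and Hbb-bt were at 0 in all mouse libraries, but others were not. In the sgSik3 table the erythroid gene Klf1 was at 12.2 and 6.98 with sgRosa26, where the myeloid genes summed to 57001 to 62045. In MOLM-13 with DMSO the T cell genes summed to 23.1 to 41.9 and the myeloid genes to 17870 to 18848. The summed level of 10 granulocyte genes moved with the knockouts. It ran from 46399 to 50939 with sgRosa26 and from 137553 to 148422 with sgSik3, and in the sgMef2c table from 48772 to 53407 and from 140929 to 228995. All 10 granulocyte genes passed the test as higher in sgSik3 and 9 in sgMef2c. Over all genes tested, 23.9% passed as higher and 23.9% as lower in sgSik3, and 16.3% and 15.1% in sgMef2c. Of 8 monocyte and macrophage genes, 2 passed as higher and 4 as lower in sgSik3, and 1 as higher and 5 as lower in sgMef2c. The chemokine receptor genes Cx3cr1 (-2.17 in sgSik3 and -2.04 in sgMef2c on the log2 scale) and Ccr2 (-1.62 and -1.82) and the coreceptor gene Cd14 (-0.54 and -0.85) were among the lower ones, and the lysozyme gene Lyz2 (1.13 and 0.43) was higher in both. The sum over the 8 genes, in contrast, was 54211 to 55691 with sgRosa26 and 103685 to 107411 with sgSik3. Lyz2 alone was at 46996 and 44295 with sgRosa26 and at 102068 and 98293 with sgSik3, so it made up most of this sum. In the table of sgMef2c the sum over the 8 genes was 56837 to 58541 with sgRosa26 and 65387 to 73600 with sgMef2c. The part of these shifts in the results below was not tested. In RN2 the granulocyte sum was 26960 to 27148 with DMSO and 27499 to 28688 with YKL-05-099.

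The upstream stretches of Phlpp1, the PHLPP gene that did not share the drop of Phlpp2, and of Inpp5d, which stayed level, are shown to set their letters beside the description of the Phlpp2 window that follows. They are RefSeq sequence of build GRCm38.p6 and end at the last base before the first transcribed base, taken as the earlier of the RefSeq and GENCODE M21 starts. The Phlpp1 stretch is chr1:106171619-106171751 on the plus strand (133 bases, 67.7% G or C) and the Inpp5d stretch is chr1:87620062-87620311 on the plus strand (250 bases, 54.4% G or C). Capitals mark the letters TGACG, the short form of the cAMP response element (CRE). CREB binds the CRE, and salt-inducible kinases phosphorylate the coactivators of CREB.
Phlpp1: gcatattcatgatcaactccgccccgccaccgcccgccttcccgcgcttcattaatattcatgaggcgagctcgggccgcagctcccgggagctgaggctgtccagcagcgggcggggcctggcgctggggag
Inpp5d: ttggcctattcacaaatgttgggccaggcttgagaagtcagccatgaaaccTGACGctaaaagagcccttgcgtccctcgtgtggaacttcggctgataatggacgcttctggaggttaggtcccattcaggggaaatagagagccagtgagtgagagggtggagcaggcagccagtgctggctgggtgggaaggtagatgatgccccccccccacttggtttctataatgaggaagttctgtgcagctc

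Each RefSeq window of 300 bases, 250 upstream and 50 downstream of a start, was searched on both strands. The search used a MEF2 core pattern, the full CRE TGACGTCA and its short form TGACG, which every full CRE contains. The MEF2 core pattern has fixed letters at both ends and accepts any letters between them. Over all 32851 windows, 3.69% held the MEF2 core pattern, 1.79% the full CRE and 20.8% the short form. All 6 genes had a window. The short form was found in the only window of Phlpp2 and of Inpp5d and in 2 of the 4 windows of Akt2, and was not found in those of Phlpp1, Inpp4b and Akt1. In Phlpp2 it begins 65 bases before the first transcribed base so defined, and in Inpp5d 199 bases before it, on the plus strand in both. No window of the 6 genes held the MEF2 core pattern or the full CRE. MEF2 sites with other letters at the fixed ends were not searched for. The result therefore does not show that these windows lack MEF2 sites. A match describes these letters only.

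In the annotation, Phlpp2 spans chr8:109868542-109944671 and Phlpp1 chr1:106171752-106394250, both on the plus strand of GRCm38. Inpp4b lies on the plus strand at chr8:81342556-82127914, Inpp5d on the plus strand at chr1:87620312-87720507, Akt1 on the minus strand at chr12:112653821-112674884 and Akt2 on the plus strand at chr7:27591552-27640826. No exon of these genes shares a base with an exon of another gene in GENCODE M21, which matters because the library kit does not mark strand.

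To compare levels between genes, the mouse values were divided by the length of each gene's merged exons. In the sgRosa26 libraries of the sgSik3 table, Akt1 stood highest at 2029 ± 22.5 per kb of exon (SD, n = 2). It was followed by Inpp5d at 643 ± 26.2, Akt2 at 208 ± 5.24 and Phlpp2 at 173 ± 6.40 per kb. Phlpp1 came far below at 29.2 ± 0.415 and Inpp4b was lowest at 7.03 ± 1.18 per kb. The order was the same in RN2 with DMSO, where Akt2 at 165 ± 7.35 and Phlpp2 at 159 ± 6.65 per kb did not differ beyond their spread. Phlpp2 was thus the PHLPP transcript of higher level in these mouse cells, at 6.0 and 5.81 times Phlpp1 per kb with sgRosa26 and 8.30 and 7.20 times with DMSO. Inpp4b in RN2 amounted to 3 to 13 reads per library, against 72 to 103 in the libraries of the sgSik3 table.

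Phlpp2, the phosphatase that removes the hydrophobic motif phosphate of AKT, was lower in all 6 treated mouse libraries. With sgRosa26 its normalized value (reads divided by the library's size factor) was 1498 and 1422, and with sgSik3 it was 392 for guide e1 and 455 for guide e3. The groups lay far apart, and the mean went from 1460.3 ± 54.0 to 424 ± 44.6 (SD, n = 2), 3.45-fold lower. On the log2(value + 1) scale used for all fold changes here the difference was -1.79 with a standard error (SE) of 0.08, the 32nd lowest of 10934 genes tested. These are bulk samples, in which fewer cells of a type and less RNA per cell cannot be told apart.

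In the sgMef2c table, Phlpp2 was at 1575 and 1491 with sgRosa26, and at 672 for guide 1 and 565 for guide 2 of sgMef2c. Again no library of the groups overlapped, and the mean was 2.48-fold lower (log2 difference -1.31, SE 0.09). In RN2 after 2 h of YKL-05-099, Phlpp2 was at 618 and 566, against 1308 and 1387 with DMSO. That was 2.28-fold lower (log2 difference -1.19, SE 0.07), the 8th lowest of 10732 genes tested. The gap between the control libraries of a table was at most 0.09 on the log2 scale for Phlpp2 in these 3 tables. The single treated libraries lay at -1.12 to -1.89 from the control mean. Phlpp2 was chosen on these values, so the contrast is a description.

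**Figure D1:**
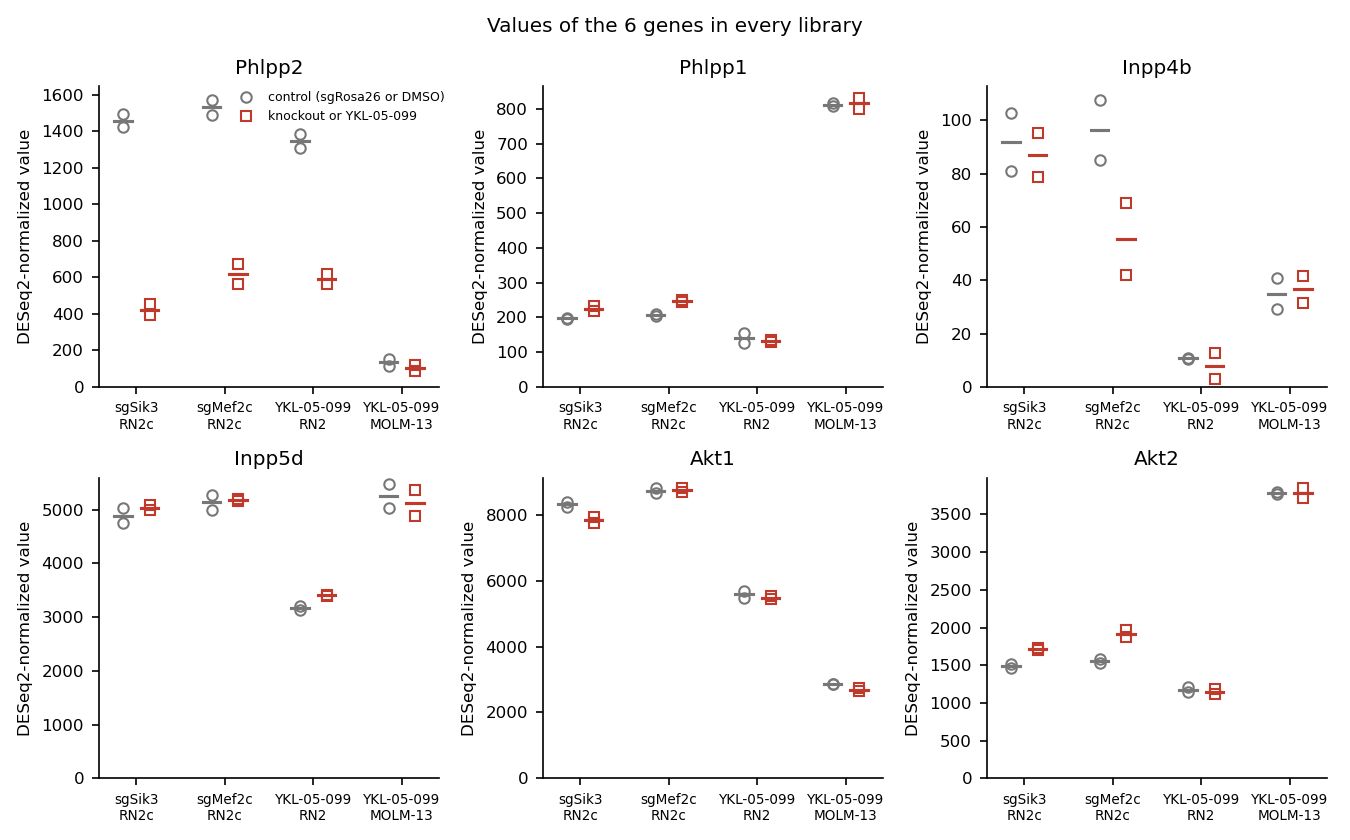
Normalized values of the 6 genes in every library, by comparison. Each symbol is 1 library, circles are controls (sgRosa26 or DMSO), squares are knockouts or YKL-05-099, and short lines are the means of 2. Phlpp2 drops from between 1308 and 1575 in the mouse controls to between 392 and 672, while Phlpp1, Inpp5d, Akt1 and Akt2 shift less. Inpp4b, at low values, goes from 85.0 and 107.7 with sgRosa26 to 68.9 and 42.0 with sgMef2c.

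Counted by the test used for all genes (limma, adjusted p under 0.05), 2 of the 6 genes were called in sgSik3, Phlpp2 as lower and Akt2 as higher, where 47.8% of all genes tested were called (23.9% higher and 23.9% lower). In sgMef2c 3 of the 6 were called, Phlpp2 and Inpp4b as lower and Akt2 as higher, where 31.4% of all genes were called (16.3% higher and 15.1% lower). In RN2 with YKL-05-099 only Phlpp2 was called of the 5 that passed the filter on low values, where 0.317% of all genes were called (0.0373% higher and 0.28% lower). Since the choice of the set used these comparisons, nothing is read from these counts.

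MOLM-13 is the comparison that the choice did not use. PHLPP2 was at 154 and 116 with DMSO and at 120.5 and 88.8 with YKL-05-099, so that the groups overlapped. The log2 difference was -0.37 (SE 0.23, 95% interval -0.90 to 0.17), with a limma p of 0.148 and an adjusted p of 1.00. PHLPP2 rested on few reads here, 93 to 147 per library. The interval excludes a difference as large as the -1.19 in RN2 and includes 0. Whether the response to the inhibitor differs between the lines was not tested, since the cells, the doses and the tables differ. In MOLM-13 0% of 11361 genes were called with limma, and 144 had an unadjusted p under 0.05. DESeq2 called 7 genes and edgeR 0. Library 2 of each MOLM-13 group was below library 1 for PHLPP2, and the same-numbered differences were -0.35 and -0.39.

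The knockouts were then compared directly with edgeR, using reads recovered from all 6 RN2c libraries. In CPM (counts scaled to library size), Phlpp2 was at 72.1 and 68.4 with sgRosa26, 18.9 and 22.0 with sgSik3, and 30.9 and 25.9 with sgMef2c. All sgMef2c values were above all sgSik3 values and far below the controls. The sgMef2c level was higher than the sgSik3 level by 0.48 on the log2 scale (edgeR adjusted p = 0.0194), where 9.44% of all genes were called (3.7% higher and 5.74% lower in sgMef2c). Limma gave 0.45 with a 95% interval of 0.24 to 0.66. The edgeR call was lost without sgSik3 guide e1 (0.37, adjusted p = 0.192), without sgSik3 guide e3 (0.59, adjusted p = 0.0915) and without sgMef2c guide 1 (0.34, adjusted p = 0.0927), where the lone library is assumed to vary like the other groups. None of the other 5 genes passed this test. Their differences were 0.06 for Phlpp1 (limma 95% interval -0.14 to 0.25), -0.04 for Inpp5d (-0.12 to 0.05), 0.08 for Akt1 (0.01 to 0.16) and 0.08 for Akt2 (-0.02 to 0.17). Inpp4b was at -0.71 (edgeR adjusted p = 0.0973), and passed with no filter on low values (adjusted p = 0.0223) and without sgMef2c guide 1 (-1.14, adjusted p = 0.045).

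Phlpp1, the paralog with the same enzymatic activity, did not share the drop. Its values were 199 and 195 with sgRosa26 and 232 and 218 with sgSik3 (log2 difference 0.19, SE 0.10). In the sgMef2c table they were 209.6 and 205 with sgRosa26 and 244 and 249.9 with sgMef2c (0.25, SE 0.09). In both tables the knockout libraries lay above the controls without overlap, though neither difference was among those called. With 2 libraries a group, such a separation can also arise without a difference. The share of all genes that separate this way was not counted, so a lack of overlap is a description here and for the other genes. In RN2 the groups overlapped, at 126 and 154 with DMSO and 135 and 130.0 with YKL-05-099 (-0.07, SE 0.14). MOLM-13 had 807 and 816 with DMSO and 831 and 801 with YKL-05-099 (0.01, 95% interval -0.23 to 0.25). The ratio of Phlpp2 to Phlpp1 per kb accordingly went from 6.0 and 5.81 with sgRosa26 to 1.35 and 1.67 with sgSik3 and to 2.20 and 1.81 with sgMef2c. In RN2 it went from 8.30 and 7.20 to 3.66 and 3.48, so Phlpp2 remained the higher of the PHLPP transcripts in every mouse library. No exon lengths of the human genes were used here, so PHLPP1 and PHLPP2 levels are not compared with each other in MOLM-13.

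**Figure D2:**
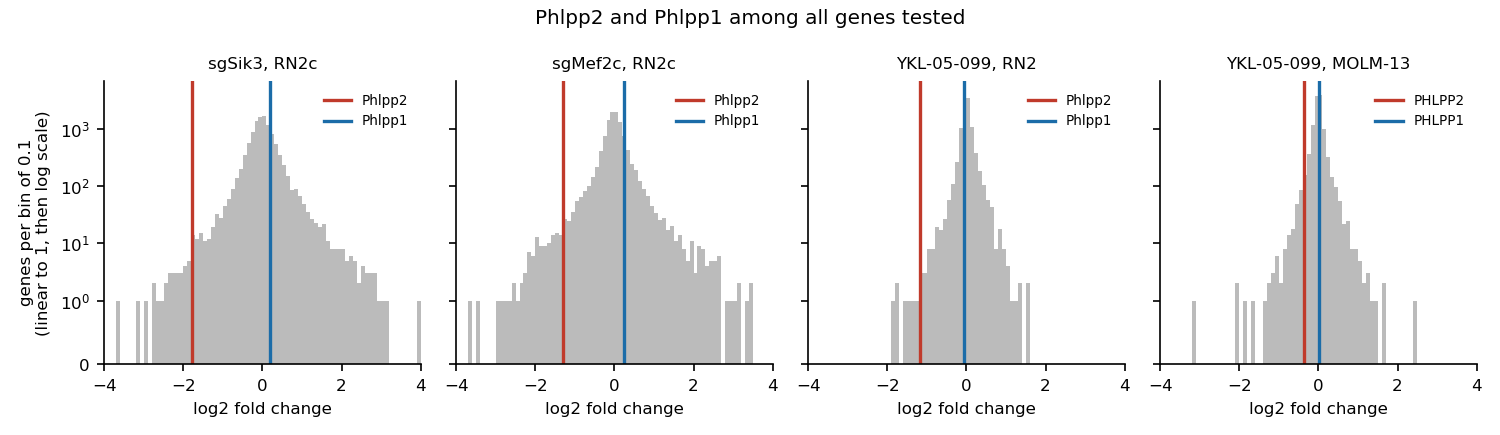
Distribution of log2 fold changes over all genes tested in each comparison, in bins of 0.1 with gene number on a scale that is linear to 1 and logarithmic above, the end bins taking values beyond the axis. The line of Phlpp2 stands in the lower tail in the 3 mouse panels, at -1.79, -1.31 and -1.19, and at -0.37 in MOLM-13, while the line of Phlpp1 stays between -0.07 and 0.25.

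Of the lipid phosphatases, Inpp5d was high and nearly level. This gene encodes SHIP1, which removes the 5-phosphate of PIP3. It was at 4749 and 5031 with sgRosa26 and 5083 and 4993 with sgSik3 (log2 difference 0.04, SE 0.04), and at 4992 and 5275 against 5167 and 5199.7 in the sgMef2c table (0.01, SE 0.04). In RN2 the YKL-05-099 libraries, at 3416 and 3393, lay above DMSO at 3130.4 and 3216 (0.10, SE 0.04), a difference not among those called. In MOLM-13 INPP5D was at 5026 and 5481 with DMSO and at 4880.2 and 5375 with YKL-05-099 (-0.04, 95% interval -0.26 to 0.19).

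Inpp4b, whose enzyme removes the 4-phosphate of the SHIP1 product, was low in every table. Its values were 80.9 and 103 with sgRosa26 and 95.4 and 78.6 with sgSik3, which overlap (log2 difference -0.07, SE 0.18). With sgMef2c it was at 68.9 for guide 1 and 42.0 for guide 2, below 85.0 and 107.7 with sgRosa26 (-0.82, SE 0.26). It was called at the edge of the threshold, and 8 of 10 alternatives lost the call, among them edgeR and DESeq2. Leaving out sgRosa26 1 (-0.99), sgRosa26 2 (-0.65) or guide 2 (-0.47) also ended it. In RN2 it was at 10.5 and 11 with DMSO and 2.92 and 12.7 with YKL-05-099, below the filter and not tested. In MOLM-13 INPP4B was at 40.9 and 29.1 with DMSO and 41.7 and 31.5 with YKL-05-099 (0.07, 95% interval -0.63 to 0.77), an interval too wide to exclude a moderate change.

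The AKT genes moved little beside Phlpp2. Akt1, the more abundant, was at 8380.4 and 8250.2 with sgRosa26 and 7925 and 7747 with sgSik3 (log2 difference -0.09, SE 0.03). These groups did not overlap, and the difference was not called with limma but was with edgeR and without sgRosa26 2. It was at 8809 and 8649.8 against 8699 and 8824 in the sgMef2c table (0.01, SE 0.04), and at 5475 and 5696 against 5454 and 5521 in RN2 (-0.03, SE 0.04). AKT1 in MOLM-13 was at 2852 and 2868 with DMSO and 2648 and 2739.8 with YKL-05-099 (-0.09, 95% interval -0.29 to 0.12), without overlap and not past the test.

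Akt2, the paralog tied most closely to insulin signaling, was higher in the knockouts. It was at 1459 and 1512 with sgRosa26 and 1729 and 1707 with sgSik3 (log2 difference 0.21, SE 0.04). With sgMef2c it was at 1868 and 1964, above 1534 and 1585 (0.30, SE 0.05). The groups did not overlap in either table. In RN2 they overlapped, at 1214 and 1140.0 with DMSO and 1116 and 1186 with YKL-05-099 (-0.03, SE 0.06). In MOLM-13 AKT2 was at 3776 and 3801 with DMSO and 3853 and 3721 with YKL-05-099 (0.00, 95% interval -0.20 to 0.20).

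**Figure D3:**
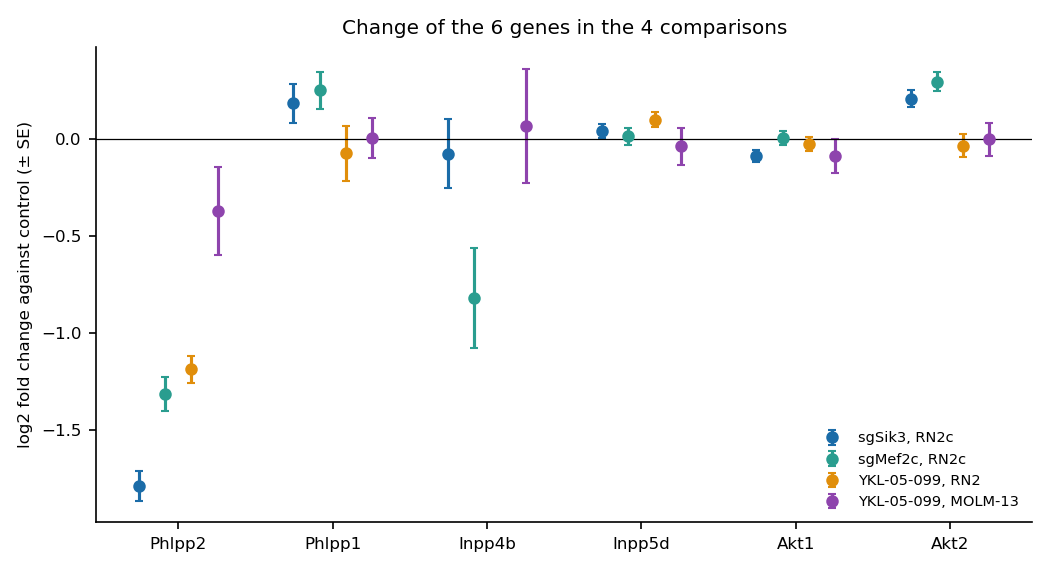
Log2 fold change (treated or knockout against its control) of the 6 genes in the 4 comparisons, with bars of 1 SE from limma. Phlpp2 lies at -1.79, -1.31 and -1.19 in the mouse comparisons, Inpp4b at -0.82 in sgMef2c with a wide bar, and Akt2 at 0.21 and 0.30 in the knockouts. Inpp4b in RN2 is not drawn because it was below the filter.

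The rest of the pathway was read from 8 lists of 74 genes in all, the 6 genes included. In sgSik3, 26 of 72 tested list genes were higher and 12 lower, with a median log2 difference of 0.08 against -0.00 over all genes, of which 23.9% were called higher and 23.9% lower. In sgMef2c, 20 of 72 were higher and 12 lower, with a median of 0.01 against 0.00 over all genes, of which 16.3% were called higher and 15.1% lower. Without the 6 genes the counts were 25 higher and 11 lower of 66 in sgSik3, and 19 higher and 10 lower of 66 in sgMef2c. The granulocyte and monocyte sums given above differ between the same groups.

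Upstream, 7 of 10 PI3K subunits rose and 2 fell in sgSik3, where 47.8% of all genes were called. Pik3cb, the catalytic p110beta, rose by 0.43 (SE 0.03, limma adjusted p = 1.4e-05), and Pik3cg, the catalytic subunit that acts below G protein-coupled receptors, by 0.36. The adaptor Pik3ap1 rose by 0.31 and Pik3cd, the leukocyte catalytic subunit, by 0.21. In sgMef2c, where 31.4% of all genes were called, 3 of 10 rose and 1 fell: Pik3cb by 0.31, Pik3ap1 by 0.18 and Pik3cg by 0.14, with the regulatory subunit Pik3r5 at -0.33 (-0.30 in sgSik3). Among AKT and the kinases above it, Pdpk1, which encodes PDK1, rose by 0.17 in sgSik3 and 0.14 in sgMef2c. Mtor was at -0.17 in sgSik3 (-0.07 in sgMef2c, not past the test), and the mTOR complex subunit Mlst8 at 0.21 in sgMef2c (0.01 in sgSik3, not past the test). With Akt2 this list had 2 higher and 1 lower of 9 in sgSik3, and 3 higher and none lower of 9 in sgMef2c.

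The lipid brakes did not move together. Of 9, 2 rose and none fell in sgSik3 (47.8% of all genes called), and 2 rose and 3 fell in sgMef2c (31.4%). Inpp4a, which encodes the other enzyme of the INPP4 kind, rose the most of this list in each knockout. It was at 536 and 495 with sgRosa26 and 1016 and 1166 with sgSik3 (log2 difference 1.08, SE 0.08, limma adjusted p = 8.2e-06), and at 564 and 519 against 994 and 1071.6 in the sgMef2c table (0.93, SE 0.07). It thus lay opposite to its paralog Inpp4b in sgMef2c. The 5-phosphatase Inpp5k rose by 0.31 and 0.25. The PI3K inhibitor gene Pik3ip1 fell by 0.32 on the log2 scale in sgMef2c. In sgSik3 it was at -0.13 (SE 0.07), not past the test.

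Among the AKT protein phosphatases and binding brakes, 4 rose and 4 fell of 12 in sgSik3 (47.8% of all genes called). In sgMef2c (31.4% called) 3 rose and 2 fell of 12, and Phlpp2 was the lowest of the list in each knockout. The PP2A catalytic subunit Ppp2cb rose by 0.52 in sgSik3 (3647 and 3503 against 5251 and 4997) and by 0.43 in sgMef2c. Slc9a3r1, a scaffold known to bind PHLPP enzymes, rose by 0.55 and 0.41. The AKT-binding pseudokinase Trib1 rose by 0.73 in sgSik3 and was at 0.55 in sgMef2c (limma adjusted p = 0.0478). The PP2A regulatory subunit Ppp2r2a was at -0.18 in sgSik3 and -0.21 in sgMef2c.

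Downstream, most AKT substrates and mTORC1 genes did not pass. Of 15, 1 rose and 2 fell in sgSik3 (47.8% of all genes called), and 2 rose and 1 fell in sgMef2c (31.4%). The translation repressor Eif4ebp1 was at -0.34 and -0.22, Tsc2 at 0.18 and 0.20, the S6 kinase Rps6kb1 at -0.13 in sgSik3 and Foxo4 at 0.23 in sgMef2c. In the other knockout Rps6kb1 was at -0.05 and Foxo4 at 0.10, neither past the test. FOXO target genes went both ways, with 6 higher and 2 lower of 12 in sgSik3 and 4 higher and 4 lower in sgMef2c. The cyclin gene Ccng2 rose by 0.71 and 0.40, the insulin receptor Insr by 0.47 and 0.28, and Gadd45a, a stress gene that p53 also induces, by 0.75 and 0.98. Irs2 rose by 0.83 in sgSik3 and was at 0.65 in sgMef2c (limma adjusted p = 0.0144). Sesn1 fell by 0.53 on the log2 scale in sgMef2c and was at -0.16 in sgSik3 (limma adjusted p = 0.0172).

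Kinases other than AKT that PHLPP enzymes are known to act on were called higher at 4 of 5 tested in sgSik3, with Rps6kb1 lower. In sgMef2c 3 of 5 were called higher and none lower. Over all genes 23.9% were called higher in sgSik3 and 16.3% in sgMef2c. Prkcb, a conventional protein kinase C that myeloid cells express, rose by 0.59 (2987 and 3289 against 4732 and 4708) and by 0.67 (3139 and 3448 against 4936 and 5591). Prkcd rose by 0.36 and 0.21, and Stk4 by 0.15 in each. The AKT-related kinase Sgk3 was at -0.14 and -0.21, and Sgk1 was at -0.85 in sgMef2c (117 and 143 against 67.1 and 75.4) and at -0.34 in sgSik3, not past the test there. The calls of Trib1 and Irs2 in sgMef2c, and of Pik3r5, Ppp2r2a and Sesn1 in sgSik3, were not checked under the alternatives. Of the named list genes that were checked, 4 in sgSik3 lost their call under at least 1 alternative (Mtor, Rps6kb1, Sgk3 and Tsc2). So did 14 of those in sgMef2c: Eif4ebp1, Foxo4, Inpp5k, Mlst8, Pdpk1, Pik3ap1, Pik3cg, Pik3ip1, Pik3r5, Ppp2r2a, Prkcd, Sgk3, Stk4 and Tsc2.

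**Figure D4:**
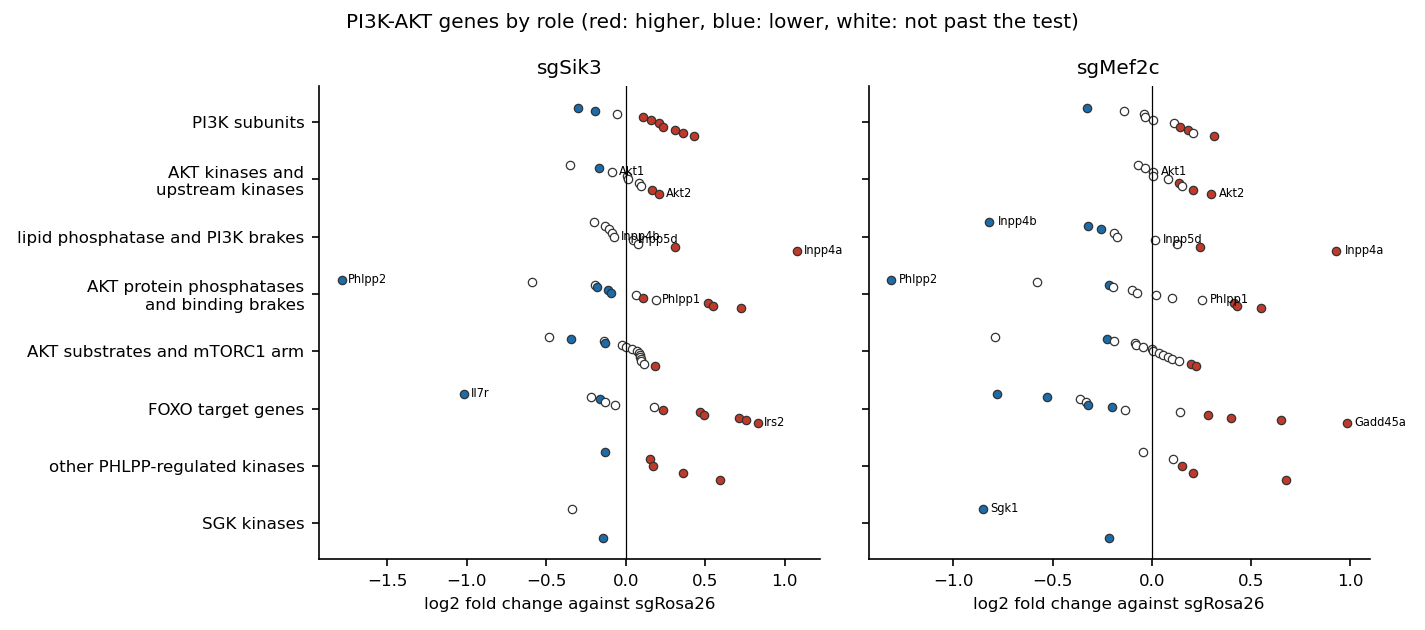
Log2 fold change of each tested PI3K-AKT gene in sgSik3 and sgMef2c, by role, with 1 dot per gene. Filled dots passed the limma test (red higher, blue lower) and open dots did not. Phlpp2 is the leftmost dot in both panels at -1.79 and -1.31, with Inpp4a at 1.08 and 0.93 on the other side.

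Set against each other by edgeR, the knockouts differed at 10 of 72 list genes, where 9.44% of all genes were called. Phlpp2 was the only one higher in sgMef2c, and 9 were lower there, among them Pik3cg by -0.23, Pik3r1 by -0.21, Insr by -0.19, Sesn1 by -0.37, Ccng2 by -0.32, Cdkn1b by -0.36, Bcl2l11 by -0.44 and Prkcd by -0.16. The proapoptotic FOXO target Bcl2l11 was at 51.0 and 52.6 CPM with sgRosa26, 59.6 and 62.8 with sgSik3 and 44.8 and 45.7 with sgMef2c, so that the knockouts lay on opposite sides of the control. Each of the 9 lost its call under at least 1 alternative.

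After 2 h of YKL-05-099 in RN2, 0 of the 67 tested list genes outside the 6 were called with limma, where 0.317% of all genes were called. Over all 72 tested list genes Phlpp2 was the 1 called, but it was chosen on these values, so nothing is read from its call. Of the 67 tested list genes outside the 6, 9 (13.4%) had an unadjusted p under 0.05, as had 7.32% of all genes. Leaving out a DMSO library brought the list's calls to 2 or 3. In MOLM-13 0 of 73 were called with limma, edgeR or DESeq2 in the fits with no replicate block, and 2 (2.74%) had an unadjusted p under 0.05, as had 1.27% of all genes. The counts with the replicate number as a block were higher in both lines.

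The pattern of Phlpp2 over the 6 treated mouse libraries was compared with that of 9548 other genes of mean value of at least 50 in each mouse table, by the root mean square (RMS) difference of log2 ratios to the controls. The nearest were the potassium channel gene Kcnj2 (RMS 0.43), the protocadherin gene Pcdh7 (0.43), the chemokine gene Ccl3 (0.47), Fam84b (0.48) and the dermatan sulfate epimerase gene Dse (0.50). Phlpp2 itself was at -1.89 and -1.68 with sgSik3, -1.19 and -1.44 with sgMef2c, and -1.12 and -1.25 with YKL-05-099. Kcnj2 was at -1.62 and -1.35, then -0.54 and -0.77, then -1.08 and -1.06, weaker in sgMef2c. Pcdh7 was at -1.78 and -1.75, then -1.31 and -1.61, then only -0.53 and -0.41 with the inhibitor. Ccl3 lay below Phlpp2 in every library, between -2.29 and -1.53. A level of -1 or below in all 6 libraries, a bound chosen after the values were seen, was met by 4 of these 9549 genes: Ccl3, Ccl4, Cd28 and Phlpp2. Phlpp2 was itself chosen for its drop in these comparisons, so nothing is read from its place among the 4.

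**Figure D5:**
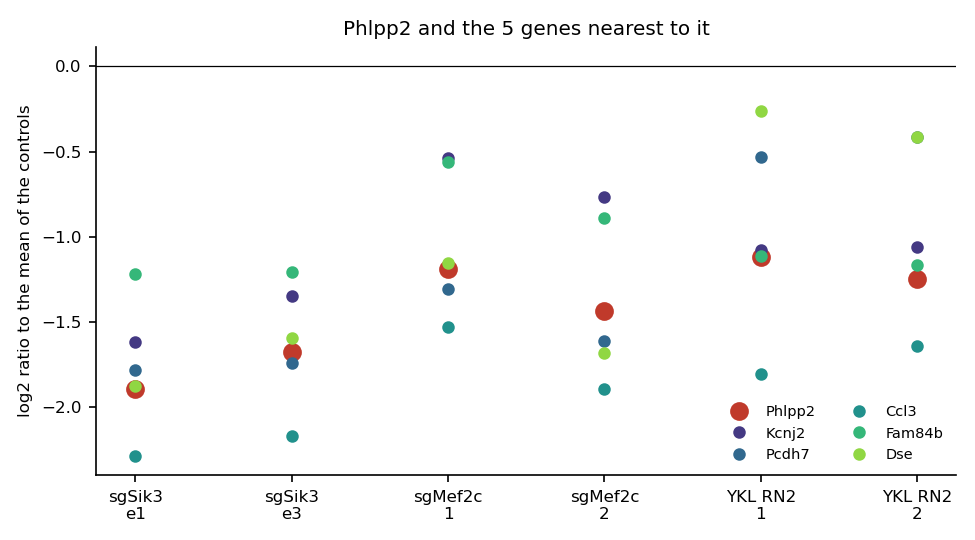
Log2 ratio to the mean of the controls in each of the 6 treated mouse libraries, for Phlpp2 (large points) and the 5 genes nearest to it. Phlpp2 lies between -1.89 and -1.12 throughout, Ccl3 lies below it in every library, and Dse and Pcdh7 lie well above it with YKL-05-099.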

How the data were processed

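Messenger RNA was measured in 14 libraries of 7 groups. The tools named by the submitters' processing notes are HISAT2, featureCounts and DESeq2, the builds hg19 and mm10; their version numbers were not given in the sources used here. What the authors deposited is 1 table per comparison, 4 in all, each normalized on its own. The deposited values are a linear signal that the authors made by dividing reads by the DESeq2 size factor of the library. Dividing by the smallest nonzero value of a library gave whole reads for 100% of values (tolerance 1e-06 reads).

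Within a table, log2(value + 1) was tested for genes whose mean value reached 10, with limma 3.58.1 (trend, two-sided, Benjamini-Hochberg over all tested genes, threshold 0.05) in R 4.3.3. The knockouts were compared on recovered reads with the quasi-likelihood test of edgeR 4.0.16 and TMM factors, over genes with a mean of at least 10 reads; DESeq2 1.42.0 was an alternative. The test scripts were tested on simulated data. Other alternatives were a pseudocount of 0.5, no filter, edgeR or quantile normalization, leaving out each library, and the replicate number as a block.

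The 6 genes and all gene lists were chosen with earlier results of these data known. Named besides them were up to 4 genes of lowest p per list and comparison among those past the test, all list genes past the direct test, the targeted genes, and the 5 genes nearest to Phlpp2 in pattern. Values of a named gene in the other knockout, 4 monocyte genes chosen after their values were seen, and the non-significant values of the 6 genes are given for contrast. Some listed genes enter the counts but are not reported here by name. Promoter windows came from RefSeq (GRCm38.p6) and exon lengths from GENCODE M21; the human genes had no sequence or length here.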

Additional observations from a re-analysis of the deposited data

Results flagged for a closer look

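Phlpp2 differed between the knockouts by the direct edgeR test: its level was higher in sgMef2c than in sgSik3 by 0.48 on the log2 scale (adjusted p = 0.0194, range over the alternatives 0.000149 to 0.192), in 2 of 2 sgMef2c libraries. The guides of sgSik3 gave 18.9 and 22.0 CPM and those of sgMef2c 30.9 and 25.9, and 3 of the 6 fits that leave out 1 library lost the call.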

How the results depend on the processing

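Over 29 values of the 6 genes and 278 alternative fits, 245 kept direction and side of the threshold, 11 lost and 4 gained a call, and 18 turned sign. The reversed values were at most 0.17 in size and none passed the threshold. With quantile normalization AKT2 in MOLM-13 was at 0.0067. Leaving out 1 library gave ranges in MOLM-13 of -0.026 to 0.024 for AKT2, -0.17 to 0.31 for INPP4B, -0.11 to 0.034 for INPP5D and -0.020 to 0.034 for PHLPP1, and of -0.59 to -0.15 for PHLPP2. In RN2 it gave -0.054 to 0.0033 for Akt1, -0.078 to 0.013 for Akt2 and -0.22 to 0.073 for Phlpp1. In sgMef2c it gave -0.0079 to 0.018 for Akt1 and -0.025 to 0.054 for Inpp5d, and in sgSik3 -0.24 to 0.097 for Inpp4b. Phlpp2 in the direct comparison ranged from 0.34 to 0.59. DESeq2 called 2255 genes and 19 list genes in sgMef2c, 7 genes in MOLM-13 and 606 in the direct comparison. In RN2 3 genes were called with no filter and 16 with quantile normalization. Leaving out 1 library gave 1818 to 3140 genes and 16 to 28 list genes in sgMef2c, 26 to 318 genes and 1 to 3 list genes in RN2, 14 to 20 genes and 0 to 1 list genes in MOLM-13, and 45 to 1161 genes in the direct comparison. The cause of these shifts was not tested; fits without a library have fewer samples.

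With 2 libraries a group, the replicate numbers are shared names and not a stated pairing, and in sgMef2c they number the guides. Same-numbered deviations correlated across genes at 0.05 in sgMef2c, 0.22 in RN2 and 0.53 in MOLM-13. With the replicate number as a block, 499 genes and 7 list genes were called in RN2, and 290 genes and 5 list genes in MOLM-13, where PHLPP2 had an adjusted p of 0.241. No paired analysis was possible for sgSik3, whose guides are numbered 1 and 3, or for the direct comparison. Inpp4b in RN2 (3 to 13 reads per library) and PHLPP2 in MOLM-13 (93 to 147 reads) rest on few reads, which limits their precision at this depth.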
